A study of Mus musculus with 8 samples.

Results

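The 7 genes described here encode enzymes that break down or convert small metabolites: Ido1, Ido2, Kynu, Xdh, Nos2, Acod1 and Upp1. They were chosen by name, as enzyme genes linked to interferon, from the 14133 genes of the deposited table. All 7 were found there and passed the filter on low counts, so that each is among the 14006 genes tested. The choice was made with the difference between propranolol and control tumours already known for these genes. The group differences below are therefore descriptions, and nothing is drawn from their p-values.

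The samples are 8 subcutaneous tumours grown in male BABL/C mice from CT26, a mouse colon carcinoma line, with the genotype given as WT. Propranolol tumours 1 to 4 were taken from mice that received the beta-adrenergic receptor blocker propranolol once a day by peritoneal injection, beginning when tumours measured 70 to 100 mm3, and control tumours 1 to 4 from mice that received PBS. The labels used here name no dose, mouse age or collection day. No label says whether each numbered tumour came from its own mouse, so any p-value measures the spread between these samples only.

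Interferon gamma is a cytokine released mainly by activated T cells and NK cells. In responding cells it raises, besides antigen presentation genes, several catabolic enzymes that deplete a nutrient or make an active product. IDO1 and its paralog IDO2 open the tryptophan ring in the first step of the kynurenine pathway, and KYNU, kynureninase, acts further down it. XDH, xanthine dehydrogenase, makes uric acid in purine breakdown. NOS2 makes nitric oxide from arginine, ACOD1 makes itaconate from the citric acid cycle intermediate aconitate, and UPP1 splits uridine into uracil and ribose phosphate. Macrophages are the best known source of NOS2 and ACOD1.

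Promoter sequence was at hand in RefSeq (GRCm38.p6) for Acod1 and Upp1 only. Both are shown because no others were at hand, and a link between sequence and level was not tested. The 250 bases before the annotated start of Acod1 (chr14:103046762-103047011, plus strand) and before the first of 3 annotated starts of Upp1 (chr11:9117758-9118007, plus strand) read, 5′ to 3′, with a TATA box (TATAAA) or a GC box (GGGCGG) in capitals:
Acod1: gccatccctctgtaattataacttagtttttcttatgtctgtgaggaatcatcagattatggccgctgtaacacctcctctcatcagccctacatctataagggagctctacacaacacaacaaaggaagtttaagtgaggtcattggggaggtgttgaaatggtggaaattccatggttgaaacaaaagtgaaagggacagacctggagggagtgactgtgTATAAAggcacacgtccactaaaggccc
Upp1: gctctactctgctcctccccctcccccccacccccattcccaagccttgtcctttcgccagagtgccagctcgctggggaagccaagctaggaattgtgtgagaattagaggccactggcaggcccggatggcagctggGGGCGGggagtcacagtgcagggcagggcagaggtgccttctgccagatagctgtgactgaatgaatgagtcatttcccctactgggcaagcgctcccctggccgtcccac
The TATA box of Acod1 begins 28 bases before the start (position -28), and 13.6% of all 32851 windows of 300 bases hold 1 on either strand. The GC box of Upp1 begins at position -111, and 35.7% of windows hold 1. Those 2 motifs were added after the sequences had been seen. Windows of 300 bases, 250 before to 50 after each start, were also searched on both strands for the interferon gamma-activated site (GAS, TTCNNNGAA, in 8.30% of windows) and the core of the interferon-stimulated response element (ISRE, 3.44%). The same search took in the NF-kappaB site (4.51%), the cAMP response element (TGACGTCA, 1.79%) and its core (TGACG, which also lies within the full element, 20.8%). None of these 5 motifs matched in the Acod1 window or in any of the 3 Upp1 windows, which says only that these letters are not in these windows.

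Library totals lay between 15483409 and 17511937 counts, and TMM scaling factors between 0.968 and 1.03. Marker genes of several cell types were read in the same libraries. Of 10 epithelial and CT26 markers, 5 were in the table and tested, and they summed to 105, 128, 195 and 93.5 CPM (counts scaled to library size) in propranolol tumours 1 to 4, against 102, 129, 177 and 79.0 CPM in control tumours 1 to 4. With 3 of the 5 fitted above control and a median log2 fold change of 0.05, the sum was highest in tumour 3 of each group. The keratin gene Krt8 was low, at 0.121 to 4.495 CPM in propranolol tumours and 0.827 to 14.0 CPM in control tumours, and Krt18 lay at 5.76 to 20.2 CPM in propranolol tumours and 9.10 to 18.7 CPM in control tumours. Epcam, Krt19, Krt7, Cdx2 and Vil1, the other epithelial markers listed, are not analysed here. Control tumour 4 stood apart by skeletal muscle transcripts, whose 8 markers summed to 814 CPM there, against 1.72 to 80.5 CPM in propranolol tumours and at most 20.8 CPM in the other control tumours. The 16 T cell markers summed to 12.8 to 293 CPM in propranolol tumours and to 23.3 to 76.9 CPM in control tumours. In a bulk tumour, fewer cells of a type and less RNA per cell cannot be told apart.

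Of the 7 enzyme genes, Ido1, Ido2, Nos2 and Acod1 had fitted levels at least 2-fold higher in propranolol tumours, Xdh was 1.78-fold higher, Upp1 1.18-fold higher and Kynu at 0.895 of the control level. The groups overlapped for all 7. Propranolol tumours 1 and 4 were the highest pair for 4 of them, and propranolol tumour 3 was the lowest of all 8 for Xdh and Acod1. No gene of the whole table passed edgeR's quasi-likelihood test at an adjusted p under 0.05 (0 of 14006, or 0%). Genes with an unadjusted p under 0.05 numbered 273 with edgeR (1.95%) and 337 with DESeq2 (2.39% of the 14087 genes it gave a p), which also left 0 past an adjusted p of 0.05. Ido1, Ido2 and Xdh were among the edgeR genes, as 3 of the 173 higher ones (1.24% of genes tested). With 1 tumour left out that number ran from 64 (without propranolol tumour 1) to 753 (without propranolol tumour 3), and it was 271 without propranolol tumour 2 and 508 with the tumour number as a block. Each of the 3 genes had an unadjusted p over 0.05 when propranolol tumour 1, propranolol tumour 4 or control tumour 2 was left out, and so did Ido1 and Ido2 with limma-voom. A fitted log2 fold change of at least 1 was seen for 4 of the 7, against 1.84% of all genes tested, and a level above control for 6 of the 7, against 49.4%. At least 2 propranolol tumours lay above every control tumour for 5 of the 7 and for 22.9% of all genes tested. All 4 propranolol tumours lay above all control tumours for 0 of the 7 (0.714% of genes tested) and below them for 0 of the 7 (0.914%). This contrast was used in choosing the genes, so nothing is read from these counts. Over the 7 genes the median log2 fold change was 1.25, against -0.0022 over all genes tested.

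**Figure D1:**
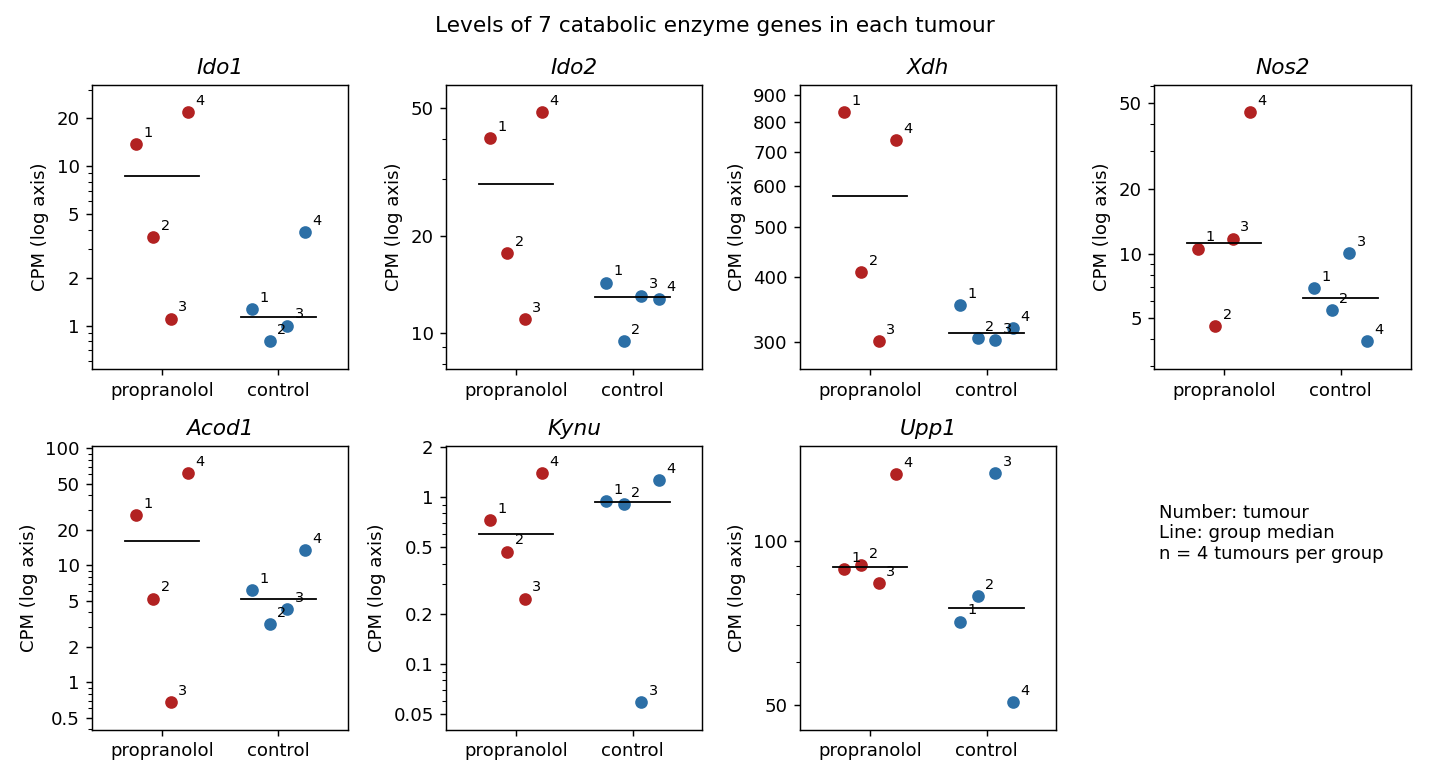
CPM (log axes) of the 7 enzyme genes in each tumour, propranolol left and control right, with tumour numbers beside the points and a line at the median of 4. Propranolol tumours 1 and 4 are the highest pair for Ido1, Ido2, Xdh and Acod1, while the groups overlap for every gene.

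Of the tryptophan-degrading pair, Ido1 had the larger fitted difference, which was also the largest of the 7. Ido1 (ENSMUSG00000031551, chromosome 8 from 25074152 to 25087025, minus strand, coordinates as deposited, with GRCm39 named in the submitters' processing notes) had 13.7, 3.61, 1.11 and 21.7 CPM in propranolol tumours 1 to 4, against 1.27, 0.80, 1.0 and 3.85 CPM in control tumours 1 to 4. Propranolol tumours 1 and 4 lay above every control tumour, propranolol tumour 2 lay just under control tumour 4, and propranolol tumour 3 lay among the controls. The mean was 10.03 ± 9.49 CPM in propranolol tumours and 1.73 ± 1.43 CPM in control tumours (SD, n = 4 each), which the edgeR fit put at a log2 fold change of 2.53 (SE 0.93).

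Ido2 (ENSMUSG00000031549, chromosome 8 from 25021908 to 25066349, minus strand) lies 7802 bases from Ido1 on the same strand. It had 40.3, 17.7, 11.02 and 48.5 CPM in propranolol tumours 1 to 4, against 14.3, 9.38, 13.0 and 12.8 CPM in control tumours 1 to 4. The 4 control tumours were close together, and the propranolol tumours were spread out, with coefficients of variation of 60.8% in propranolol and 17.0% in control tumours. Propranolol tumours 1, 2 and 4 lay above every control tumour and propranolol tumour 3 lay within the control range. The mean was 29.4 ± 17.9 CPM in propranolol tumours and 12.4 ± 2.1 CPM in control tumours (SD, n = 4 each), a log2 fold change of 1.25 (SE 0.45).

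Compared per length, in the authors' FPKM (fragments per kilobase, scaled to depth), Ido2 was above Ido1 in all 8 tumours. The Ido1 level was 0.678, 0.406, 0.200 and 0.891 of the Ido2 level in propranolol tumours 1 to 4, against 0.177, 0.169, 0.153 and 0.601 in control tumours 1 to 4. The pair was thus nearest to equal in propranolol tumours 4 and 1 and in control tumour 4, the tumours in which Ido1 was highest. No source used here states how reads that fit both neighbours were counted.

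Kynu (ENSMUSG00000026866, chromosome 2 from 43445341 to 43572727, plus strand) had the lowest level per length of the 7, and its order of tumours was not that of Ido1 or Ido2. It had 13, 8, 4 and 23 counts in propranolol tumours 1 to 4, against 15, 16, 1 and 22 counts in control tumours 1 to 4. Propranolol tumour 4 and control tumour 4 were the highest, and control tumour 3 was the lowest. Its mean was 0.71 ± 0.50 CPM in propranolol tumours and 0.80 ± 0.52 CPM in control tumours (SD, n = 4 each). The fitted log2 difference, -0.16 (SE 0.71), changed sign when propranolol tumour 3 was left out (0.12) and when control tumour 4 was (0.15), so no direction can be given at this depth.

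Of 9 other genes of the kynurenine route, 5 were in the table and tested, and 0 passed in either direction. Their median log2 fold change was 0.19, against -0.0022 over all genes tested. Afmid, the formamidase that follows IDO1 and IDO2, had 6.38, 7.39, 5.23 and 6.68 CPM in propranolol tumours 1 to 4, against 4.39, 5.74, 5.36 and 4.25 CPM in control tumours 1 to 4. Propranolol tumours 1, 2 and 4 lay above all control tumours, with a log2 fold change of 0.38 (SE 0.19). Haao, which makes the precursor of quinolinate, had a log2 fold change of 0.47 (SE 0.41). Per length, Kmo, the kynurenine hydroxylase, averaged 0.504 FPKM and Haao 0.346 FPKM over the 8 tumours, against 3.237 FPKM for Ido1 and 5.76 FPKM for Ido2. Tdo2, Qprt, Acmsd and Aadat are not analysed here.

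**Figure D2:**
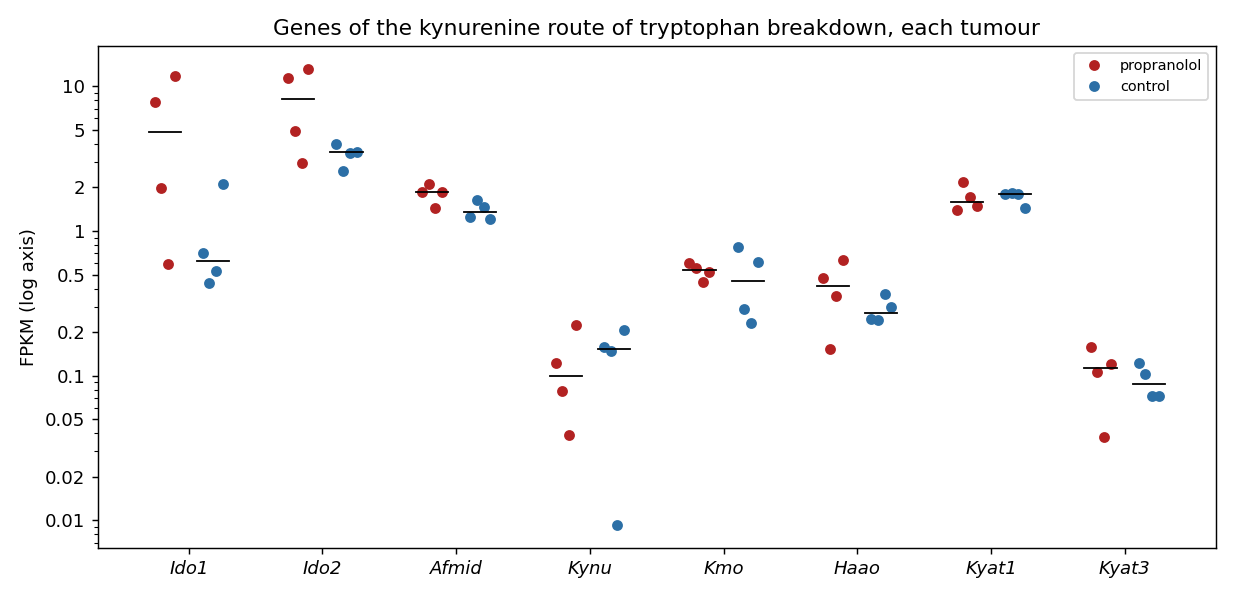
FPKM (log axis) of genes of the kynurenine route in each tumour, propranolol left and control right within each gene, with a line at the median of 4. The 2 highest points of Ido1 and of Ido2 are propranolol tumours 1 and 4, while Kynu, Kmo, Haao and Kyat3 stay below 1 FPKM in every tumour.

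Genes that sense or supply tryptophan gave no call. Of 9 tested, 0 passed, 4 had a fitted level above control and 5 below, and the median log2 fold change was -0.04. Ahrr, the repressor of the aryl hydrocarbon receptor that kynurenine can activate, had a log2 fold change of 1.24 (SE 0.77) at a level of 0.185 to 1.28 CPM in propranolol tumours and 0 to 0.636 CPM in control tumours. Slc7a5, the main carrier of large neutral amino acids, had one of -0.30 (SE 0.19).

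Xdh (ENSMUSG00000024066, chromosome 17 from 74190890 to 74257191, minus strand) had the highest counts of the 7, unadjusted for length. It had 835, 409, 301 and 738 CPM in propranolol tumours 1 to 4, against 354, 306, 302 and 319 CPM in control tumours 1 to 4. The coefficient of variation was 44.8% in propranolol tumours and 7.30% in control tumours. Propranolol tumours 1, 2 and 4 lay above every control tumour, and propranolol tumour 3 lay just below all of them. The mean was 571 ± 256 CPM in propranolol tumours and 320.2 ± 23.4 CPM in control tumours (SD, n = 4 each), a log2 fold change of 0.83 (SE 0.30).

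Other purine genes differed among themselves. Of 16 tested genes of purine breakdown and salvage, 0 passed, 9 had a fitted level above control and 7 below, and the median log2 fold change was 0.03. Entpd1, which encodes the ATP-degrading ectoenzyme CD39, had 49.8, 25.1, 18.7 and 63.1 CPM in propranolol tumours 1 to 4, against 29.4, 25.6, 21.5 and 26.6 CPM in control tumours 1 to 4. As with Xdh, propranolol tumours 1 and 4 were the highest pair and propranolol tumour 3 the lowest of all 8, with a log2 fold change of 0.60 (SE 0.36). Samhd1, which degrades deoxynucleotides, and Ada, adenosine deaminase, were picked out after their values had been seen. They had the same highest pair and the same lowest tumour, and differed by 0.69 (SE 0.48) and 0.39 (SE 0.34) on the log2 scale. The summed CPM of the 16 genes was 1518, 1079, 909 and 1778 in propranolol tumours 1 to 4, against 1166, 1029, 956 and 1385 in control tumours 1 to 4. That sum had the highest pair and the lowest tumour of Xdh, but was highest in propranolol tumour 4, and Xdh in propranolol tumour 1. Samhd1 alone gave 181 to 847 CPM of the sum in propranolol tumours and 233 to 462 CPM in control tumours. Ampd2, an AMP deaminase, had one of -0.17 (SE 0.11). Of 8 genes of the molybdenum cofactor and the enzymes that carry it, as XDH does, 0 passed. Among them Aox1, an aldehyde oxidase related to XDH, differed by 0.28 (SE 0.23) on the log2 scale and Mtarc2 by 0.21 (SE 0.16).

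Acod1 (ENSMUSG00000022126, chromosome 14 from 103284413 to 103294009, plus strand) had the widest range of the 7, with a highest level 90.7 times the lowest. It had 26.9, 5.20, 0.677 and 61.4 CPM in propranolol tumours 1 to 4, against 6.11, 3.13, 4.24 and 13.4 CPM in control tumours 1 to 4. The 2 highest tumours and the lowest were all propranolol tumours. The mean was 23.5 ± 27.7 CPM in propranolol tumours and 6.73 ± 4.64 CPM in control tumours (SD, n = 4 each), a log2 fold change of 1.80 (SE 1.12). It was 0.70 without propranolol tumour 4, to 0.64 with limma-voom and to 1.04 with the tumour number as a block.

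The 21 genes of the citric acid cycle and of the response to itaconate gave 0 calls, with 9 fitted above control and 12 below and a median of -0.06. Idh3a, a subunit of isocitrate dehydrogenase, differed by -0.20 (SE 0.12) on the log2 scale, and Cs, citrate synthase, by -0.17 (SE 0.12).

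Nos2 (ENSMUSG00000020826, chromosome 11 from 78811613 to 78851080, plus strand) was far higher in 1 tumour than in the rest. It had 10.6, 4.61, 11.8 and 45.4 CPM in propranolol tumours 1 to 4, against 6.93, 5.46, 10.1 and 3.91 CPM in control tumours 1 to 4. That was propranolol tumour 4. Propranolol tumours 1 and 3 were just above control tumour 3, and propranolol tumour 2 lay below 3 of the control tumours. The mean was 18.1 ± 18.5 CPM in propranolol tumours and 6.59 ± 2.63 CPM in control tumours (SD, n = 4 each), a fitted log2 difference of 1.45 (SE 0.69). Leaving out propranolol tumour 4 gave 0.44, and with the tumour number as a block it was 0.97.

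Of 18 other tested genes of arginine and nitric oxide metabolism, 0 passed, 9 were fitted above control and 9 below, and the median was -0.09. Odc1, which turns ornithine into putrescine, had 234, 356, 377 and 311 CPM in propranolol tumours 1 to 4, against 348, 392, 512 and 422 CPM in control tumours 1 to 4. The groups overlapped in propranolol tumours 2 and 3 and control tumour 1, and the log2 fold change was -0.39 (SE 0.17). Arg1, the arginase that uses the same substrate as NOS2, was added to the named genes after its values had been seen. Its level per length was above that of Nos2 in all 8 tumours, and Nos2 reached 0.229, 0.261, 0.0692 and 0.417 of it in propranolol tumours 1 to 4, against 0.155, 0.0884, 0.0594 and 0.0933 in control tumours 1 to 4.

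Upp1 (ENSMUSG00000020407, chromosome 11 from 9068103 to 9086170, plus strand) had no clear direction. It had 88.7, 90.3, 83.7 and 133 CPM in propranolol tumours 1 to 4, against 71.1, 79.2, 133 and 50.5 CPM in control tumours 1 to 4. Control tumour 3 and propranolol tumour 4 were the highest and nearly equal, and control tumours 4, 1 and 2 were the lowest. The mean was 98.9 ± 22.8 CPM in propranolol tumours and 83.6 ± 35.3 CPM in control tumours (SD, n = 4 each), a log2 fold change of 0.24 (SE 0.29). Single tumours moved it between 0.06 (without control tumour 4) and 0.57 (without control tumour 3), and it was 0.07 without propranolol tumour 4.

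Of 16 other tested pyrimidine genes, 0 passed, 7 were fitted above control and 9 below, and the median was -0.04. Upp2, the paralog of Upp1, had 2.71, 2.54, 1.79 and 2.43 CPM in propranolol tumours 1 to 4, against 2.1, 1.42, 1.77 and 1.38 CPM in control tumours 1 to 4. Propranolol tumours 1, 2 and 4 lay above every control tumour, with a log2 fold change of 0.51 (SE 0.27). Umps, which completes new UMP synthesis, differed by -0.23 (SE 0.13) on the log2 scale.

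**Figure D3:**
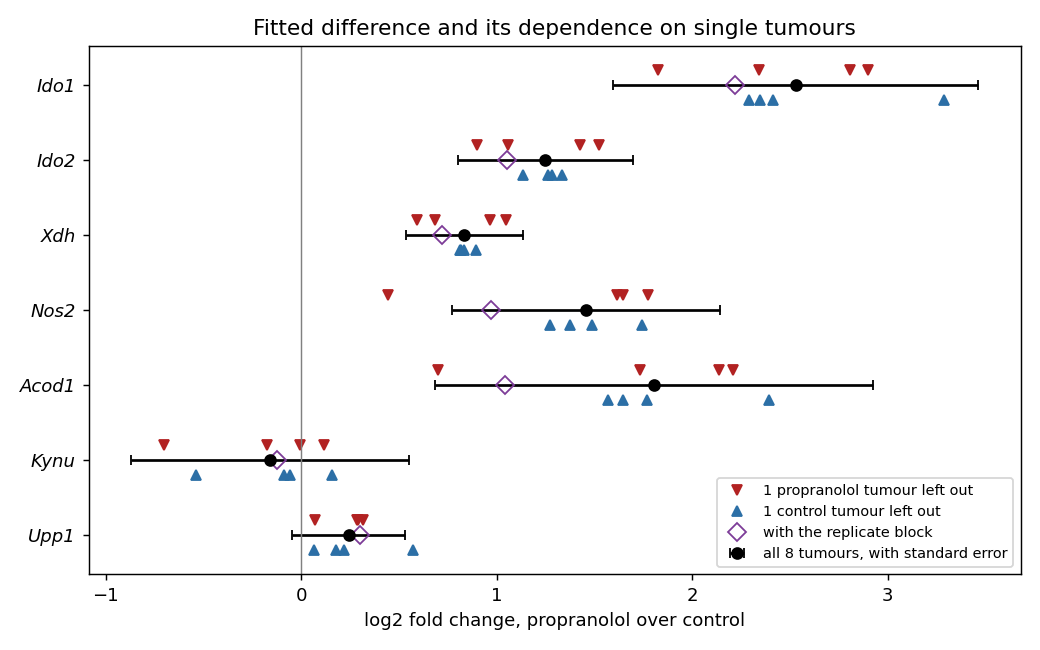
Log2 fold change of each gene, propranolol over control, from edgeR (black, with standard error), with 1 propranolol tumour left out (red), with 1 control tumour left out (blue) and with the tumour number as a block (open diamonds). Nos2 and Acod1 come down to 0.44 and 0.70 when propranolol tumour 4 is left out, while Ido1 stays at or above 1.82.

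Per length, the 7 genes fell into an abundant pair, a middle group and 1 scarce gene. Xdh averaged 48.7 FPKM over the 8 tumours and Upp1 46.3 FPKM, and Xdh was above Upp1 in 4 of 8 tumours, so those neighbours did not differ beyond their spread. Acod1 averaged 5.79 FPKM, Ido2 5.76 FPKM, Ido1 3.237 FPKM and Nos2 2.76 FPKM. Acod1 was above Ido2 in 2 of 8 tumours and Nos2 above Ido1 in 4 of 8, while Ido2 was above Ido1 throughout. Kynu averaged 0.123 FPKM, a level under which 0.828% of the genes in the table lie, against 93.5% for Xdh.

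The coefficient of variation over the 8 tumours was 135% for Acod1, 131% for Ido1, 111% for Nos2, 71.3% for Ido2, 62.5% for Kynu, 48.3% for Xdh and 31.5% for Upp1. Genes with a mean level within 2-fold of each had a lower median, such as 15.2% around Acod1, 11.6% around Xdh and 42.4% around Kynu. The share of those genes that varied less ran from 83.3% for Kynu to 99.8% for Acod1. Taken over the 8 tumours, the coefficient includes the difference between propranolol and control tumours. The enzyme genes were chosen with that difference known, so nothing is read from these medians and shares.

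Of the 7 enzyme genes, 4 had the same highest tumours. Propranolol tumours 1 and 4 were the highest pair for Ido1, Ido2, Xdh and Acod1 (4 of 7), as they were for 10.6% of all genes tested. Propranolol tumour 4 was the single highest tumour for 5 of 7 (Ido1, Ido2, Acod1, Nos2 and Kynu), as it was for 20% of all genes tested. The 7 genes were chosen with the difference between propranolol and control tumours known, which favours genes high in some propranolol tumours. Nothing is therefore read from these counts against the shares of all genes tested. Ifng, the interferon gamma gene, had 4.06, 1.42, 0 and 10.7 CPM in propranolol tumours 1 to 4, against 1.27, 0.171, 0.413 and 1.32 CPM in control tumours 1 to 4. Its highest pair was also propranolol tumours 4 and 1, and it had no count in propranolol tumour 3, where Xdh and Acod1 were lowest.

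As a measure of likeness over the 8 tumours, which share the 2 groups and the T cell marker levels given above, Pearson's r of log2 CPM with Ifng was 0.96 for Acod1 (Spearman's rho 0.93). It was 0.89 for Ido1 (rho 0.90), 0.88 for Ido2 (rho 0.90) and 0.83 for Xdh (rho 0.93). It was lower for Kynu at 0.57 (rho 0.52), for Nos2 at 0.44 (rho 0.12) and for Upp1 at 0.22 (rho 0.29). Of all genes tested, 0.421% were at least as like Ifng as Acod1, 6.15% as Xdh, 23.8% as Nos2 and 34.9% as Upp1. The enzyme genes were chosen as linked to interferon and with the group difference known, so nothing is read from these shares. Without the 2 tumours farthest from each gene's median, r with Ifng was 0.87 for Acod1, 0.70 for Ido1, 0.76 for Ido2 and 0.70 for Xdh, while it was 0.65 for Upp1, 0.26 for Kynu and -0.18 for Nos2. The highest tumours of Ifng were thus also those of Ido1, Ido2, Xdh and Acod1, whereas for Nos2 and Upp1 propranolol tumour 3 or control tumour 3 stood among the highest 3, where Ifng had 0 and 0.413 CPM.

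**Figure D4:**
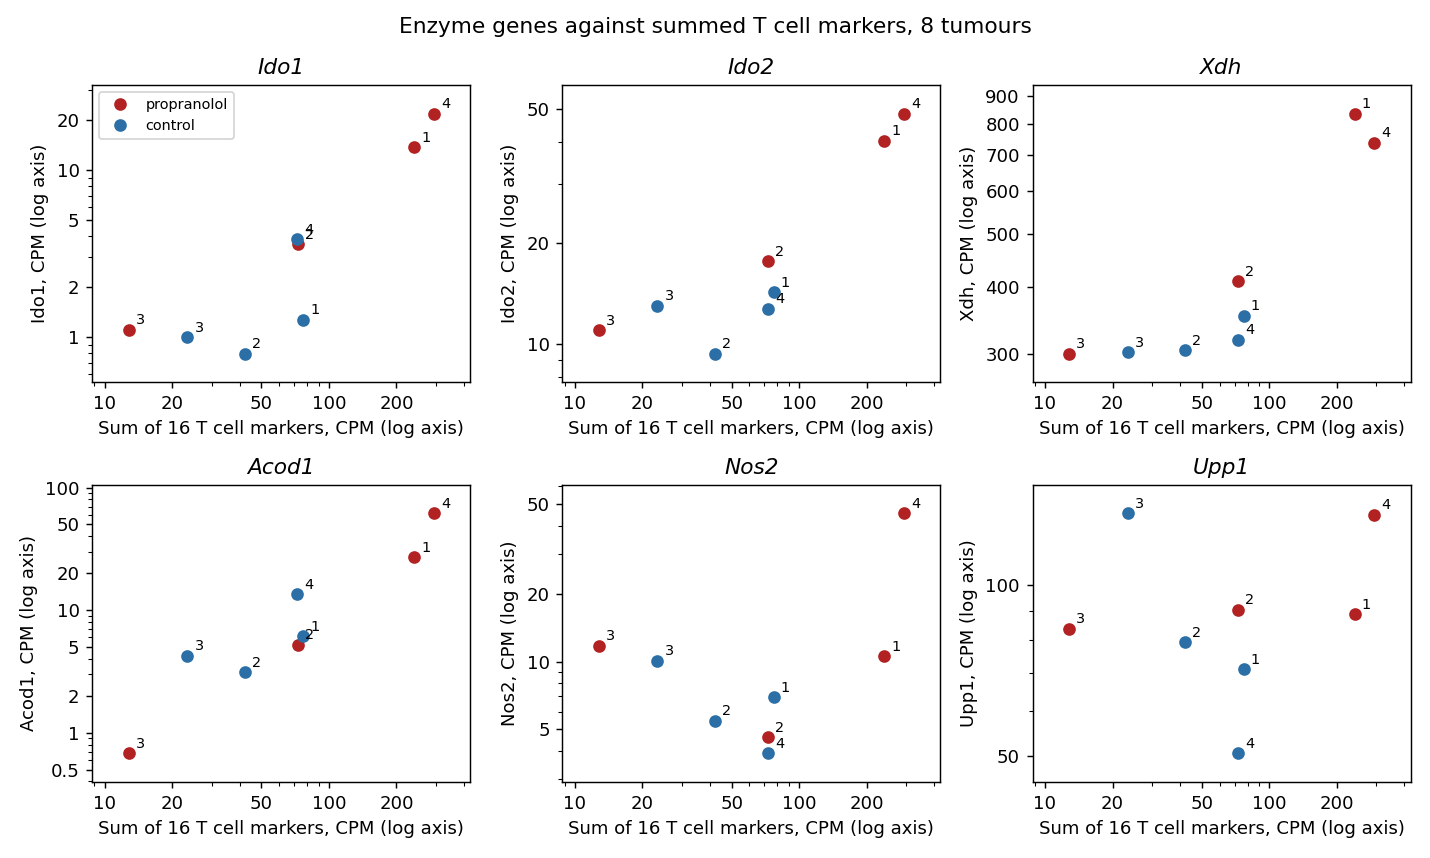
CPM of 6 enzyme genes against the summed CPM of 16 T cell markers in each tumour (log axes, propranolol red, control blue, tumour numbers beside the points). Ido1, Ido2, Xdh and Acod1 are highest in propranolol tumours 1 and 4, where the T cell sum is 240.0 and 293 CPM, whereas Nos2 and Upp1 are scattered over the range of that sum.

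Some immune cell lists were highest in the same tumours as Ido1, Ido2, Xdh and Acod1, and others were not. All 16 T cell markers were fitted above control and 0 passed, and they summed to 240.0, 72.6, 12.8 and 293 CPM in propranolol tumours 1 to 4, against 76.9, 42.1, 23.3 and 72.3 CPM in control tumours 1 to 4. The 7 tested NK cell markers, of 8 listed, summed to 169, 34.7, 9.79 and 199 CPM in propranolol tumours 1 to 4, against 60.7, 30.6, 9.31 and 74.9 CPM in control tumours 1 to 4. All 14 macrophage and monocyte markers were tested, 13 were fitted above control (median 0.30) and 0 passed. They summed to 4802, 3128, 2156 and 4426 CPM in propranolol tumours 1 to 4, against 3526, 2874, 2315 and 2850 CPM in control tumours 1 to 4, again with propranolol tumours 1 and 4 as the highest pair. Cd68, a general macrophage marker among them, was at 55.9 to 79.6 CPM in propranolol tumours and 56.6 to 78.4 CPM in control tumours. Of 11 neutrophil markers, 4 were in the table. They summed to 46.9, 26.1, 23.2 and 50.2 CPM in propranolol tumours 1 to 4, against 37.5, 35.0, 26.3 and 21.3 CPM in control tumours 1 to 4. The 13 dendritic cell markers, 9 of them fitted above control, summed to 273, 262, 293 and 272 CPM in propranolol tumours 1 to 4, against 280, 293, 259 and 405 CPM in control tumours 1 to 4, with control tumour 4 the highest. Nos2 and Upp1 ran in another order than the T cell marker Cd3e, with Spearman's rho of 0.14 and 0.19 over the 8 tumours. It was 0.83 for Ido1, 0.88 for Ido2, 0.88 for Acod1 and 0.98 for Xdh. Without the 2 tumours farthest from each gene's median, Pearson's r with Cd3e was 0.55 for Upp1 and -0.33 for Nos2. On that measure it was 0.52 for Ido1, 0.46 for Ido2, 0.67 for Xdh and 0.77 for Acod1, so Upp1 did not stand apart there. The part of cell content in the differences of the enzyme genes was not tested.

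Genes of interferon gamma signalling and of inflammatory induction were set beside the enzymes. Of 22 tested genes of the interferon gamma axis, 0 passed and 20 were fitted above control, with a median log2 fold change of 0.80. Cd274, which encodes the checkpoint ligand PD-L1, had 114, 41.9, 15.2 and 158 CPM in propranolol tumours 1 to 4, against 36.8, 27.1, 30.4 and 49.5 CPM in control tumours 1 to 4, the same highest pair. Of 16 tested inflammatory genes, most of them NF-kappaB targets or factors, 0 passed, 9 were fitted above control and 7 below, and the median was 0.04. Tnfaip3 and Nfkbia, which both restrain NF-kappaB, differed by 0.48 (SE 0.23) and 0.46 (SE 0.31) on the log2 scale, and both were higher in propranolol tumour 3 than in any control tumour.

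The genes most like each enzyme over the 8 tumours differed from one enzyme to the next. They were picked for the highest r among the genes tested, over only 8 tumours, so high values follow from the picking. Ido1 was nearest to Msn, which encodes the actin linker moesin (r = 0.99, and 0.94 without propranolol tumours 1 and 4). Ido2 was nearest to Tlr6, a Toll-like receptor (0.98, and 0.87 without those tumours). Its first 5 included Gzmk, a granzyme of T cells with a mean of 1.13 CPM (0.97 and 0.93). The others of its first 5, Irak2, Mctp2 and Sp140, came down to 0.75, 0.70 and 0.74 without those tumours. Xdh was nearest to Mctp2 (0.98 and 0.81), and its first 5 included Rfx5, a regulator of MHC class II genes (0.97 and 0.92). The others of its first 5, Jaml, Tnfrsf21 and Fam169b, came down to 0.67, 0.84 and 0.85. Acod1 was nearest to Ccdc69 (0.99, and 0.99 without propranolol tumours 3 and 4), and its first 5 included Hk3, a hexokinase of myeloid cells (0.99 and 0.98). Nos2 was nearest to Ccdc71l (0.98, and 0.88 without propranolol tumour 4 and control tumour 4). Upp1 was nearest to Ccdc91 (0.98, and 0.93 without control tumours 3 and 4), and its first 5 included Nfe2l2, the factor of the oxidative stress response (0.94 and 0.81). Mctp2, which stood among the first 5 of both Ido2 and Xdh, was the one gene shared between any of these sets of 5.

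The authors' deposited table marks Ido1, Ido2 and Nos2 as up, 3 of the 95 genes so marked (0.672% of the table). The authors' deposited table gives Ido1 a log2 fold change of 2.54, Ido2 1.25 and Nos2 1.46, with an adjusted p of 0.9997 for each of the 7 genes.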

How the data were processed

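Gene expression was measured by RNA sequencing of 8 tumours. Per the file headers, the authors deposited the raw read count and the FPKM of each gene in each tumour. The authors' own comparison is deposited beside these as a log2 fold change with its p-value, raw and adjusted, per the file headers. Per the submitters' processing notes, which give no roles, the build was GRCm39 and the tools were featureCounts 1.6.2, HISAT2 2.1.0 and fastp 0.19.3, beside edgeR 3.24.3, StringTie 1.3.4d and DESeq2 1.22.1. No strand setting or rule for shared reads is given in the sources used here. GEO's design field mentions duplicate profiles, but the titles number 4 tumours a group, which were used as replicates. Library totals of 15483409 to 17511937 counts set the precision, and genes near 1 CPM rest on few reads.

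The counts were fitted with edgeR 4.0.16 (R 4.3.3): TMM, filterByExpr (127 genes removed), robust quasi-likelihood F test and Benjamini-Hochberg adjustment over 14006 genes. This step was run on simulated data in which each gene varied on its own. Variation that genes share within a tumour was absent there, so the simulation does not show how the fit performs with it. The standard error is the log2 fold change divided by the root of F. CPM uses TMM-scaled totals. Log2 CPM for likeness has a prior count of 2. FPKM was used only as deposited, for levels between genes.

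Members and gene lists were chosen with earlier results of these data known. Named genes are the members, the first 5 by likeness to each member with a mean of at least 1 CPM, and the 2 members of each list with the smallest p where none passed; not every gene so named is reported. Alternatives were DESeq2 1.42.0, limma-voom (limma 3.58.1), other scalings, no filter, a non-robust fit, each tumour left out and a replicate block. Both groups carry numbers 1 to 4. Deviations of same-numbered tumours from their group means correlated over genes (r = 0.19, 0.31, 0.51 and 0.28 for numbers 1 to 4). All were over 0.1, so the numbers were treated as pairs in the block. Some tumours with different numbers correlated as much, such as propranolol tumour 1 with control tumour 4 (0.38) and propranolol tumour 4 with control tumour 1 (0.31). No label pairs the tumours, and these correlations cannot tell which tumours were pairs, so the block is given as an alternative only. A DESeq2 fit to the deposited counts gave the authors' deposited log2 fold changes for the 7 genes to the digits printed. No pair of libraries was a copy, with a smallest chi-square per degree of freedom of 8.97.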

Additional observations from a re-analysis of the deposited data

Results flagged for a closer look

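In 2 of the 14 sets of 4 tumours (7 genes in 2 groups), 1 tumour lay far from the other 3 by Dixon's ratio. Chance gives about 1 in 20 for independent, normally distributed values. CPM was used without a log scale and the sets share tumours, so nothing is read from that rate. Upp1 stood at 133 CPM in propranolol tumour 4, against 83.7 to 90.3 CPM in the other propranolol tumours, and control tumour 3 had a like level of 133 CPM. Ido1 stood at 3.85 CPM in control tumour 4, against 0.80 to 1.27 CPM in the other control tumours. Control tumour 4 was also the library with 814 CPM of skeletal muscle markers. Its interferon gamma axis genes summed to 3153 CPM, against 1624 to 2353 CPM in the other control tumours. Acod1 too was highest there among control tumours, at 13.4 CPM, while Ido2 and Xdh were highest in control tumour 1. The part of muscle tissue or of interferon signalling in the Ido1 level of control tumour 4 was not tested. Without control tumour 4 the log2 fold change of Ido1 was 3.29, against 2.53 with all 8 tumours.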

How the results depend on the processing

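Of 105 alternative values for the 7 log2 fold changes (15 alternatives each), 102 kept the direction and 0 passed an adjusted p of 0.05. Kynu turned positive with limma-voom (0.13), without propranolol replicate 3 (0.12) and without control replicate 4 (0.15), and leaving out 1 tumour gave -0.70 to 0.15. Leaving out 1 tumour gave 1.82 to 3.29 for Ido1, 0.90 to 1.52 for Ido2, 0.59 to 1.04 for Xdh, 0.44 to 1.77 for Nos2, 0.70 to 2.39 for Acod1 and 0.06 to 0.57 for Upp1. The 0 genes called over the whole table, and the 0 called in the pathway lists, were unchanged in all 15 alternatives. The number of genes at an unadjusted p under 0.05 was 273 with all 8 tumours, 717 with the replicate block, and 134 to 1017 with 1 tumour left out (134 without propranolol tumour 1, 459 without tumour 2 and 1017 without tumour 3); the cause was not tested. With the block, the log2 fold changes were 2.22 for Ido1, 1.05 for Ido2, 0.72 for Xdh, 0.97 for Nos2 and 1.04 for Acod1, and the block changed no call. Differences over 2-fold in Ido1, Ido2, Nos2 and Acod1 did not pass edgeR's adjusted threshold with this spread between tumours, and Kynu rests on 1 to 23 counts a tumour.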
